A study of Mus musculus with 12 samples.

Results

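The mitochondrial carriers of the Slc25 family were examined in a subcutaneous fat depot, the inguinal white adipose tissue (iWAT), of mice with and without Nrep. Members were the protein-coding genes whose symbol starts with Slc25a in the gene count table, without pseudogenes, which gave 46 of the 33200 genes listed. Of these 46, 40 had enough counts to be tested, among 16656 genes tested in all. The wild-type (WT) group held 3 C57BL/6 mice, and the knockout (KO) group held 3 mice with both copies of Nrep disrupted in every tissue by CRISPR/Cas editing (Nrep-/-). Both groups were 16 weeks old, specific-pathogen-free and fed the same maintenance diet. The sources used here do not give the animals' sex, the edited part of Nrep, the number of founder lines or whether the groups were littermates. Liver samples of the same study (6) were left out. The question is which carrier transcripts differ with Nrep genotype within iWAT.

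Slc25 proteins sit mostly in the inner mitochondrial membrane, which most metabolites cannot cross without a transporter. Each moves a set of small molecules across this membrane, often by exchange. They help set which substrates reach the matrix and which products leave it. In white fat the best known member is Slc25a1, which exports citrate to the cytosol, where ATP-citrate lyase cleaves it to the acetyl-CoA used for fatty acid synthesis. Other members exchange ADP for ATP, bring in phosphate, acylcarnitines, amino acids, iron or cofactors, and some have no settled substrate.

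Libraries held between 17970451 and 20369345 estimated counts, and expression is given below as CPM, the usual count-per-library-size unit, with library totals scaled by TMM (trimmed mean of M-values). Nrep itself had 62.1 to 76.5 CPM in WT and 0.0985 to 0.278 CPM in KO, as the labels state. Adipocyte markers were abundant in every library, with a summed level of 20376 to 26821 CPM in WT and 27869 to 49387 CPM in KO, so the labelled tissue had its defining transcripts. Skeletal muscle markers summed to 14.5 to 21.2 CPM in WT and to 4395, 732 and 4096 CPM in KO replicates 1, 2 and 3. None of these 15 muscle markers was at 0 in all 3 WT libraries, but several had very few counts there. Myh4 had 2, 1 and 0 counts and Ckm 3, 0 and 1 in WT replicates 1, 2 and 3. Acta1 made up the largest part of the WT sum, at 13.0, 6.86 and 9.51 CPM. Of the 14 muscle markers tested, 12 were called higher in KO, against 0.865% of all genes tested. Macrophage markers summed to 3236 to 4867 CPM in WT and 2274 to 2638 CPM in KO. KO replicate 2 stood apart from the other KO libraries, with a score of -0.724 on the first principal component against 43.0 and 61.6 in KO replicates 1 and 3 and -46.5 to -20.3 in WT. In bulk tissue, fewer cells of a type and less RNA per cell cannot be told apart.

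Of the 40 tested carriers, 5 were higher in KO in edgeR's quasi-likelihood test at an adjusted p of 0.05, namely Slc25a1, Slc25a10, Slc25a33, Slc25a35 and Slc25a48. Over all genes tested, 0.865% were called higher, against 12.5% of the carriers. None of the carriers was called lower in edgeR (0.162% of all genes were), where 3 were lower and 14 higher at an unadjusted p under 0.05. Over all genes tested, 9.79% were lower and 12.8% higher at that unadjusted p, and the unadjusted counts of the groups and lists below stand against the same shares. DESeq2 called 10 carriers higher and 1 lower, against 7.34% and 3.61% of all genes, and limma-voom called 0, with 16 at an unadjusted p under 0.05, as were 23.2% of all genes. Calls in edgeR and DESeq2 for the groups and lists below also stand against the all-gene shares given here. With library totals in place of TMM scaling, 4 carriers were higher and 1, Slc25a24, was lower. Over all genes, that scaling gave 0.774% called higher and 0.294% called lower. With that scaling the all-gene median of the log2 fold change shifted by -0.134.

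Positive differences were more frequent among the carriers than among all genes. The median log2 fold change of the 40 carriers was 0.25, compared with -0.06 over all genes tested, and 29 of the 40 (72.5%) had a positive value, against 44.2% of all genes. In 14 carriers (35.0%) every KO library lay above every WT library, against 15.2% of all genes. In 4 carriers (10%) every KO library lay below every WT library, against 13.1% of all genes. The summed level of all 46 carriers was 2521, 2338 and 2290 CPM in WT and 3622, 2954 and 3640 CPM in KO. Without Slc25a1 the sums were 2041 to 2183 CPM in WT and 2350 to 2840 CPM in KO, so the groups did not overlap with or without the citrate carrier.

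**Figure D1:**
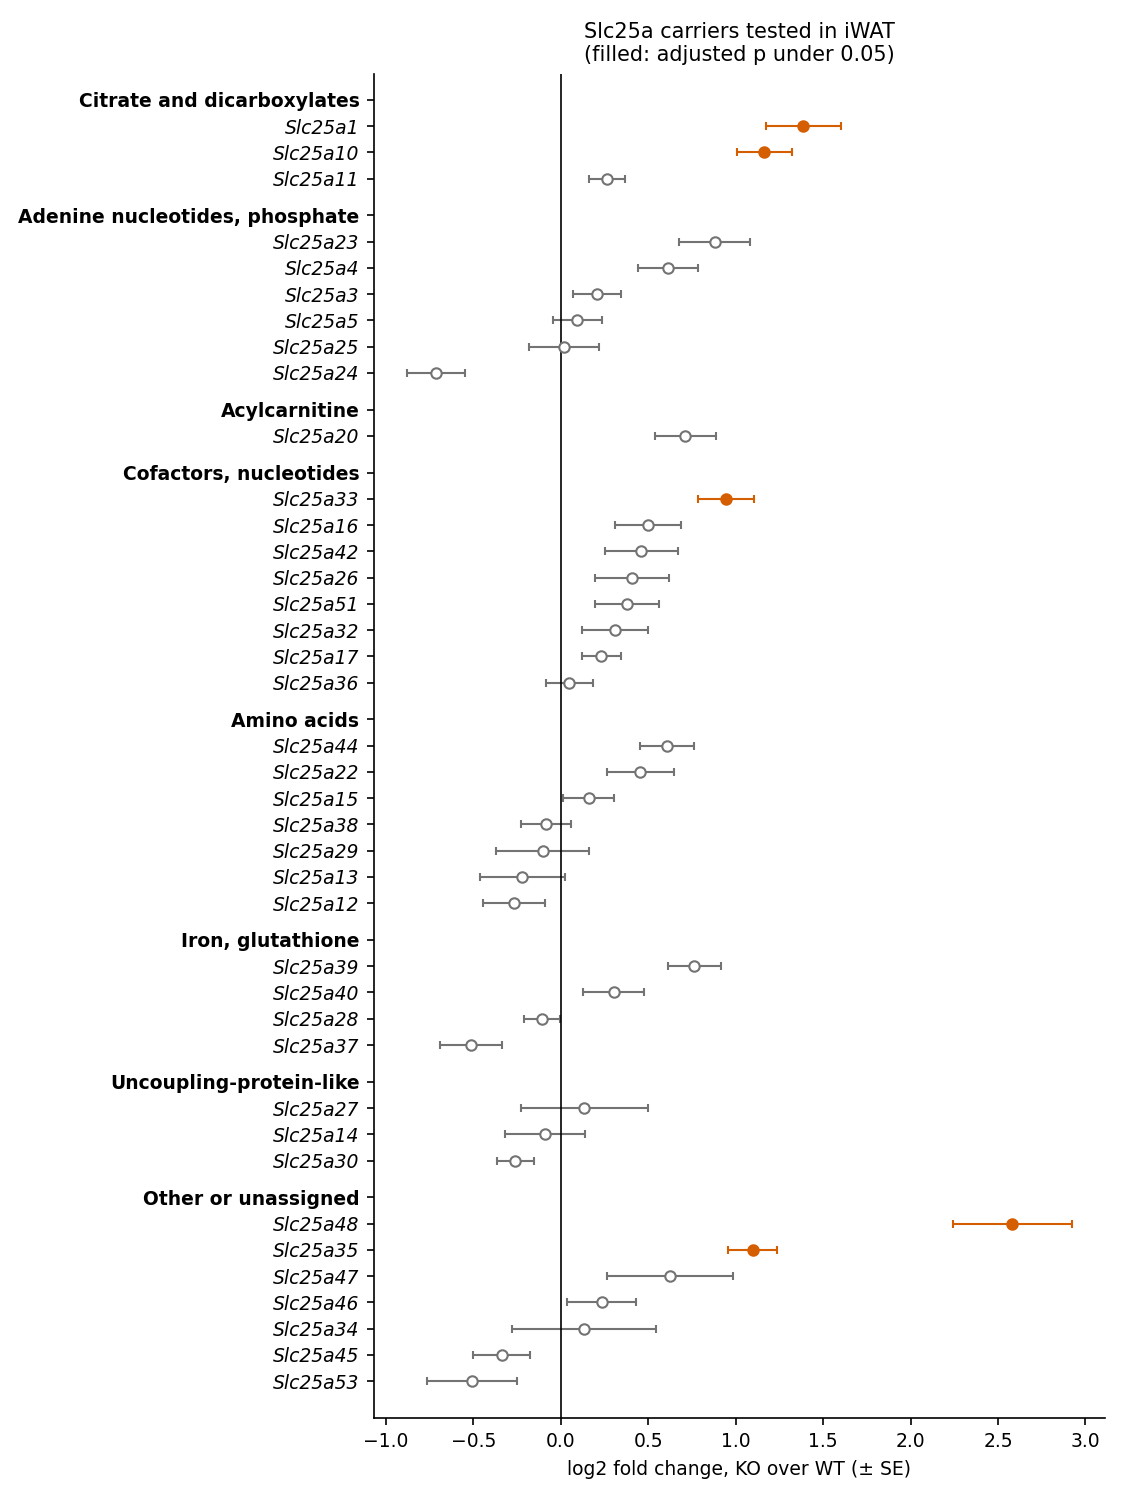
Log2 fold change (KO over WT, x axis) with its standard error for 39 of the 40 tested carriers, grouped by what they carry. The 5 filled points passed edgeR's test, and values run from -0.71 for Slc25a24 to 2.58 for Slc25a48.

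These calls rested on few libraries. Leaving out WT replicate 1, WT replicate 2, KO replicate 1 or KO replicate 3 left 0 carriers past edgeR's test, with 14, 12, 11 and 12 at an unadjusted p under 0.05. In the same order, 14%, 13.9%, 14.2% and 15.9% of all genes were under that p. All 5 passed without WT replicate 3. Without KO replicate 2, 16 carriers were higher and 4 lower, where 14.5% and 10.9% of all genes were called. The log2 fold changes of the 5 carriers moved less than their calls, and each stayed positive in all 13 alternatives.

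The carriers of citrate and dicarboxylates held 2 of the 5 calls. Slc25a1 (ENSMUSG00000003528), the citrate carrier, had 338.9, 296.5 and 222.8 CPM in WT and 841.0, 604.4 and 800.0 CPM in KO. The lowest KO library, replicate 2, lay above the highest WT library, replicate 1. Its mean rose from a level of 286.1 ± 58.7 to 748.5 ± 126.4 CPM (SD, n = 3 per group), which was a log2 fold change of 1.39 (SE 0.215, edgeR's adjusted p = 0.0435; 4.11e-08 to 0.212 over the alternatives). Slc25a10 (ENSMUSG00000025792), the dicarboxylate carrier that exchanges malate or succinate for phosphate, had 106.1, 98.0 and 88.8 CPM in WT and 256.8, 189.2 and 209.7 CPM in KO. It rose 2.24-fold, from a level of 97.6 ± 8.64 to 218.6 ± 34.7 CPM (SD, n = 3 per group; a log2 fold change of 1.16, SE 0.156, edgeR's adjusted p = 0.0326; 4.15e-09 to 0.205 over the alternatives). In both genes KO replicate 2 was the lowest KO library.

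Slc25a11, the oxoglutarate carrier that exchanges malate for oxoglutarate in the malate-aspartate shuttle, had 61.7, 66.1 and 60.6 CPM in WT and 73.9, 73.7 and 78.7 CPM in KO. Its groups did not overlap, but the difference was small and did not pass (log2 fold change 0.26, SE 0.105, edgeR's adjusted p = 0.188; 0.0534 to 0.477 over the alternatives). Slc25a21, the oxodicarboxylate carrier, had 0 to 6 counts per library and was not tested.

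Start-region sequence is shown for 3 of the carriers that rose together, Slc25a1, Slc25a10 and Slc25a33, to set the called members side by side. Each is the 250 bases before the annotated start in RefSeq's GRCm38.p6 table, which holds such windows for 35 of the 46 carriers (45 windows), and for 4 of the 5 called ones. The windows are chr16:17928220-17928469 on the minus strand for Slc25a1, chr11:120491587-120491836 on the plus strand for Slc25a10 and chr4:149774268-149774517 on the minus strand for Slc25a33, and each is written 5′ to 3′ on the gene's strand. Capitals mark CACGTG (an E-box, the core of sites for basic helix-loop-helix factors) and CCAAT or its reverse ATTGG (the CCAAT box bound by NF-Y).
Slc25a1: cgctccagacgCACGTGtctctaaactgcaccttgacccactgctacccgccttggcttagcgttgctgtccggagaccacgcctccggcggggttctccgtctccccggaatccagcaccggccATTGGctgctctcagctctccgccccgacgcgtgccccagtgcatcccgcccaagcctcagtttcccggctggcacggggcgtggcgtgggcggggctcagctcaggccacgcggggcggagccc
Slc25a10: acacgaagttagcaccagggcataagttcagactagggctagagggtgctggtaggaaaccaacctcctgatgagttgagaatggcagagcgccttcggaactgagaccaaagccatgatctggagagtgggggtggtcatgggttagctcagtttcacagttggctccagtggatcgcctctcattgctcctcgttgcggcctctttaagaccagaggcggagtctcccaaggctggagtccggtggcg
Slc25a33: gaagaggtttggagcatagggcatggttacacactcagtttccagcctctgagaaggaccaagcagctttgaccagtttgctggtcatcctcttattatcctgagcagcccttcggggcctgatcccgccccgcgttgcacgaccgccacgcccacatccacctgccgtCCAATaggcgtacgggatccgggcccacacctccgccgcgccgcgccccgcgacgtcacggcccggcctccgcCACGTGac
The Slc25a1 and Slc25a33 windows each hold 1 CACGTG and 1 CCAAT on either strand, and the Slc25a10 window holds neither. The Slc25a48 window, not shown, holds neither as well. CACGTG occurred in 6.02% of all 32851 windows of this length and in 8 of the 45 carrier windows (17.8%), and CCAAT in 33.8% and 46.7%. The GC box GGGCGG occurred in 32.7% of all windows and in 71.1% of those of the carriers. TCAAGGTCA, the element of estrogen-related receptors, was found in 0.387% of all windows and in 0 of those of the carriers. All motifs were searched on both strands, with matches of different motifs allowed to overlap. These are letter matches and not measured binding. Windows were counted and not genes, and a gene can have more than 1 window. The comparison set was every window, whether or not its gene was tested in iWAT. Base composition was not matched, and the differences between carrier windows and all windows were not tested.

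**Figure D2:**
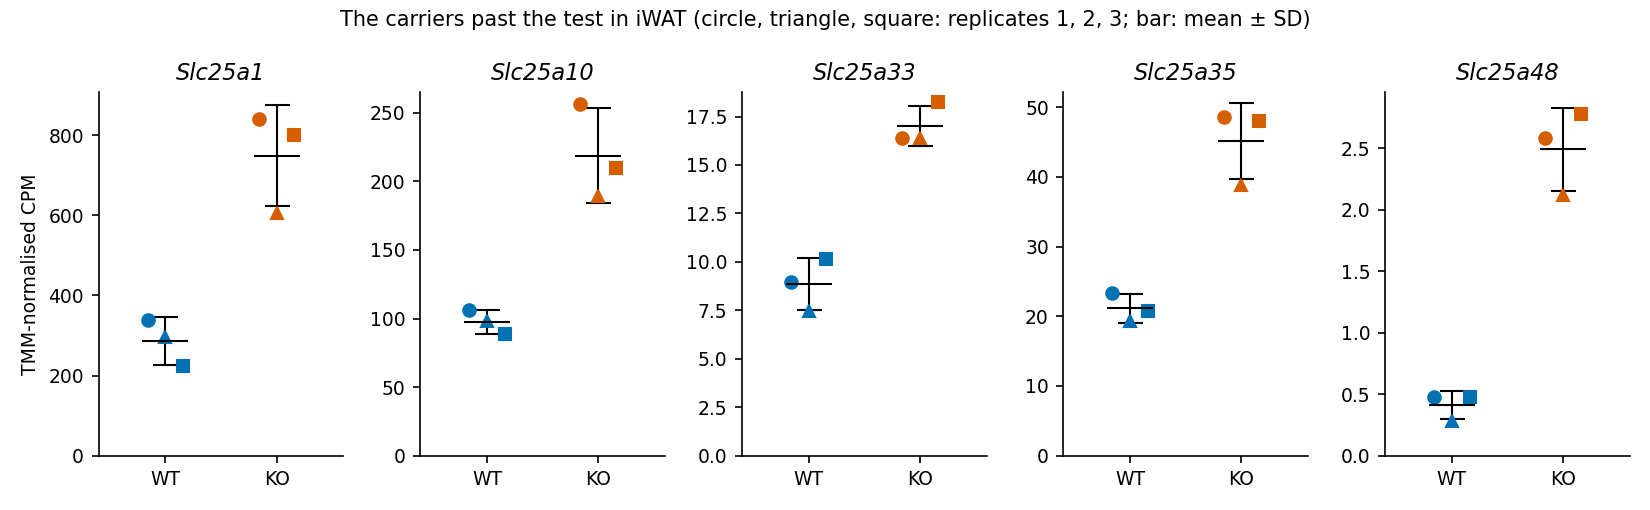
TMM-normalised CPM (y axis, from 0) of the 5 carriers past the test in the 3 WT and 3 KO libraries, with the mean and SD as bars. Every KO point lies above every WT point in each panel, and KO replicate 2 (triangle) is the lowest KO value or level with the lowest.

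Slc25a35 and Slc25a48 were the called members among carriers that are poorly characterised or were put in no other group. Slc25a35 (ENSMUSG00000018740), whose substrate is not settled, had 23.4, 19.3 and 20.7 CPM in WT and 48.5, 38.9 and 48.1 CPM in KO. It rose 2.14-fold, from a level of 21.1 ± 2.06 to 45.2 ± 5.45 CPM (SD, n = 3 per group; a log2 fold change of 1.10, SE 0.138, edgeR's adjusted p = 0.0304; 5.80e-08 to 0.182 over the alternatives). Slc25a48 (ENSMUSG00000021509), which takes choline into mitochondria, had 9, 6 and 10 counts in WT and 45, 43 and 50 counts in KO. Its log2 fold change was the largest of the 40 carriers and its level the lowest of the 5 called ones, rising from a level of 0.412 ± 0.115 to 2.49 ± 0.339 CPM (SD, n = 3 per group; a log2 fold change of 2.58, SE 0.338, edgeR's adjusted p = 0.0326; 2.22e-06 to 0.182 over the alternatives). All 6 libraries lay above the floor of 3 counts, 0.140 to 0.172 CPM, but the WT value rests on few counts.

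The others of this group did not pass. Slc25a46, an outer membrane protein of mitochondrial shape, had 59.4, 47.6 and 64.1 CPM in WT and 80.9, 50.1 and 70.2 CPM in KO. Slc25a45 had 24.7 to 29.2 CPM in WT and 18.8 to 26.6 CPM in KO, and Slc25a53 had 14.5 to 16.2 CPM in WT and 7.56 to 15.3 CPM in KO. Both overlapped only through KO replicate 2. Without that library both were past the test as lower (edgeR's adjusted p = 0.0412 and 0.0121, up to 0.539 and 0.574 over the alternatives). So were 10.9% of all genes, and the library left out is the one that made the overlap. Lymphocyte markers split the KO libraries in the same way, with summed levels of 1679 to 1709 CPM in WT and 937, 1828 and 505 CPM in KO replicates 1, 2 and 3. Of the 10 lymphocyte markers, 0 were called in edgeR, with 0 at an unadjusted p under 0.05 and 0 in DESeq2. Without KO replicate 2, 9 were called lower, against the same 10.9% of all genes. Slc25a47 and Slc25a34 lay at 0.574 to 3.50 CPM in all libraries, with log2 fold changes of 0.63 and 0.13. Slc25a43 had 6, 13 and 8 counts in WT and 5, 3 and 3 in KO and was not tested.

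Among the 9 carriers of nucleotides and cofactors, Slc25a33 was higher and 8 did not pass, while all 9 had positive log2 fold changes with a median of 0.38. Slc25a33 (ENSMUSG00000028982), which brings pyrimidine nucleotides into the matrix, had 8.94, 7.46 and 10.1 CPM in WT and 16.4, 16.4 and 18.2 CPM in KO. It rose 1.92-fold, from a level of 8.84 ± 1.33 to 17.0 ± 1.05 CPM (SD, n = 3 per group; a log2 fold change of 0.94, SE 0.160, edgeR's adjusted p = 0.0468; 4.48e-05 to 0.214 over the alternatives), and did not pass with library totals as scaling. Its relative Slc25a36, another pyrimidine nucleotide carrier, had 65.5, 57.8 and 76.5 CPM in WT and 73.9, 66.7 and 66.2 CPM in KO, with a log2 fold change of 0.05 that was negative with library totals. Slc25a33 made up 11.4% to 12.0% of the CPM of this pair in WT and 18.2% to 21.6% in KO.

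Slc25a51, the mitochondrial NAD carrier, was the most highly counted of this group, at 184.0, 148.1 and 168.8 CPM in WT and 228.3, 167.8 and 254.7 CPM in KO. The groups overlapped through KO replicate 2 (log2 fold change 0.38, SE 0.183, edgeR's adjusted p = 0.260; 0.0183 to 0.571 over the alternatives). Slc25a17, a carrier of the peroxisome rather than the mitochondrion, had 42.3 to 47.9 CPM in WT and 48.8 to 56.0 CPM in KO, without overlap (log2 fold change 0.23, edgeR's adjusted p = 0.260). Slc25a16 and Slc25a42, both linked to coenzyme A, Slc25a32, linked to folate and flavin, and Slc25a26, the S-adenosylmethionine carrier, had log2 fold changes of 0.50, 0.46, 0.31 and 0.41 and overlapping groups.

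The adenine nucleotide and phosphate carriers, which supply oxidative phosphorylation, had 6 tested members and none past edgeR's test, with 2 higher and 1 lower both in DESeq2 and at an unadjusted p under 0.05. Slc25a5, the adenine nucleotide translocase of most tissues, had 316.1, 325.5 and 273.0 CPM in WT and 342.2, 312.3 and 321.8 CPM in KO, with overlapping groups (log2 fold change 0.09, SE 0.139, edgeR's adjusted p = 0.696), and its sign turned with library totals. Reads of Slc25a5 can also match processed pseudogenes, and the sources used here do not say how they were assigned. Slc25a3, the phosphate carrier, had 361.2, 359.6 and 318.5 CPM in WT and 397.9, 374.5 and 426.9 CPM in KO, a separation of the groups with a log2 fold change of 0.21 (edgeR's adjusted p = 0.398). Slc25a4, the translocase form of heart and skeletal muscle, had 139.7, 129.8 and 137.3 CPM in WT and 222.5, 159.9 and 240.8 CPM in KO. Its groups did not overlap, but it did not pass (log2 fold change 0.62, SE 0.171, edgeR's adjusted p = 0.0954; 0.00428 to 0.313 over the alternatives).

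Slc25a4 took 30.6%, 28.5% and 33.5% of the CPM of Slc25a4 plus Slc25a5 in WT and 39.4%, 33.9% and 42.8% in KO. The mean share was 30.9% ± 2.49 in WT and 38.7% ± 4.51 in KO (SD, n = 3 per group). A two-sided exact permutation test gave p = 0.1, which is the smallest p that 3 against 3 samples allow. KO replicate 2, with the lowest summed muscle level of the KO libraries at 732 CPM, also had the lowest Slc25a4 share and the lowest Slc25a4 level of them. Its share was close to that of WT replicate 3. It also had the lowest adipocyte sum of them, at 27869 CPM. It was the lowest KO library in 27 of the 40 tested carriers, a count not made over all genes. KO replicate 1 had a higher muscle sum than KO replicate 3 (4395 against 4096 CPM) but a lower Slc25a4 level and share. The part of muscle RNA in the Slc25a4 values was not tested. Slc25a31, the translocase of the male germ line, had at most 5 counts in any library and was not tested.

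The calcium-regulated carriers of ATP-Mg and phosphate, which adjust the matrix adenine nucleotide pool, had values in opposite directions. Slc25a23 had 55.7, 45.5 and 64.9 CPM in WT and 101.6, 78.5 and 125.5 CPM in KO. Slc25a24 had 38.3, 42.4 and 31.5 CPM in WT and 24.0, 18.8 and 25.6 CPM in KO. Neither overlapped between groups, and neither passed, at log2 fold changes of 0.88 (SE 0.203, edgeR's adjusted p = 0.0682; 0.00124 to 0.257 over the alternatives) and -0.71 (SE 0.165, edgeR's adjusted p = 0.0687; 0.00541 to 0.261 over the alternatives). As a share of the CPM of the pair, Slc25a23 held 59.3%, 51.8% and 67.3% in WT and 80.9%, 80.7% and 83.0% in KO. KO replicate 2 stood with the other KO libraries in this share. It was chosen after the values were seen and is given without a test. Slc25a25, the third carrier of this type, had 34.6 to 55.8 CPM in WT and 37.0 to 52.8 CPM in KO, and the fourth, Slc25a41, had 2 counts in 1 WT library and 0 in all others.

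**Figure D3:**
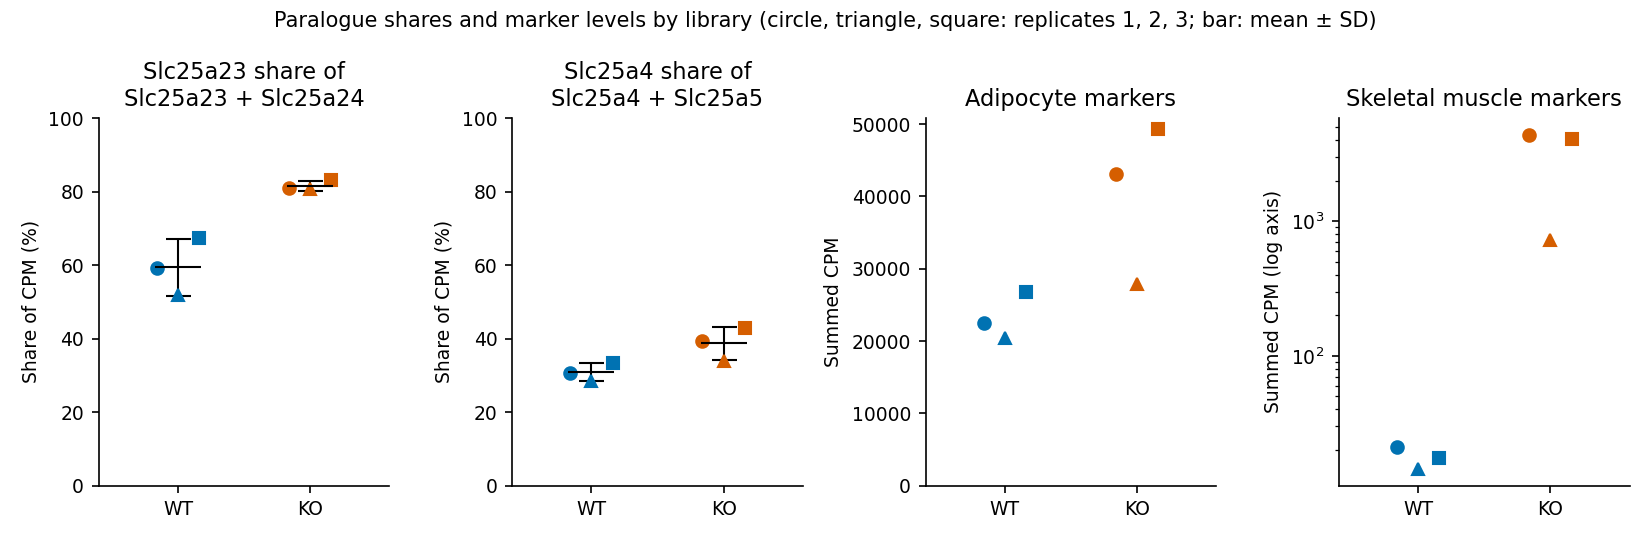
Share of CPM (%, y axis) held by Slc25a23 and by Slc25a4 within their pairs, and summed CPM of adipocyte markers (linear axis) and skeletal muscle markers (log axis), in each WT and KO library. KO replicate 2 (triangle) lies near WT in the Slc25a4 share and in the adipocyte sum, between the groups in the muscle sum, and with the other KO libraries in the Slc25a23 share.

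Slc25a20, the carnitine-acylcarnitine carrier through which long-chain fatty acids enter for oxidation, had 69.4, 60.8 and 83.0 CPM in WT and 116.9, 96.0 and 136.5 CPM in KO. The groups did not overlap, but the gene did not pass (log2 fold change 0.71, SE 0.175, edgeR's adjusted p = 0.0756; 0.00541 to 0.288 over the alternatives). None of the 6 tested partners of the carnitine shuttle passed in edgeR, where 3 were higher and 1 lower at an unadjusted p under 0.05, and DESeq2 called 3 higher. Crat and Cpt2 had the highest mean CPM of that list, and in both the groups did not overlap. Crat, the carnitine acetyltransferase, had 192 ± 22.2 CPM in WT and 351 ± 89.2 in KO (SD, n = 3 per group), and Cpt2, which turns acylcarnitines back to acyl-CoA in the matrix, had 88.2 ± 9.29 and 155.6 ± 37.3 CPM. Cpt1a, an outer-membrane enzyme that makes acylcarnitines, lay lower without overlap, at 124.1 ± 16.0 CPM in WT and 90.7 ± 8.16 in KO. Another form, Cpt1b, lay the other way with overlapping groups, at 14.4, 4.99 and 25.9 CPM in WT and 40.3, 23.7 and 58.2 CPM in KO. Its log2 fold change was 1.43 (SE 0.553, edgeR's adjusted p = 0.183). Cpt1c had a log2 fold change of -0.17 and overlapping groups. These forms were named after their values were seen.

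Of the 7 tested amino acid carriers none passed in edgeR, where 2 were higher at an unadjusted p under 0.05; DESeq2 called 1 higher. Their median log2 fold change was -0.09. Slc25a44, which carries branched-chain amino acids, had 62.8, 57.4 and 62.7 CPM in WT and 99.0, 73.5 and 106.0 CPM in KO, the separated member of this group (log2 fold change 0.61, SE 0.155, edgeR's adjusted p = 0.0828; 0.00428 to 0.296 over the alternatives). Slc25a22, a glutamate carrier, had 62.6, 53.5 and 58.3 CPM in WT and 82.1, 58.0 and 98.8 CPM in KO, with KO replicate 2 inside the WT range. Slc25a12, an aspartate-glutamate carrier of the malate-aspartate shuttle, had 34.0, 36.2 and 26.9 CPM in WT and 24.0, 32.9 and 23.7 CPM in KO (log2 fold change -0.27, edgeR's adjusted p = 0.386). Its paralogue Slc25a13, the form best known from liver, ranged from 2.22 to 3.25 CPM over the 6 libraries, and Slc25a12 held 89.8% to 91.9% of the CPM of the pair in every library. Slc25a15 and Slc25a29, which carry ornithine and basic amino acids, and Slc25a38, a glycine carrier needed for heme synthesis, had log2 fold changes of 0.16, -0.10 and -0.09. Slc25a18 and Slc25a2 had at most 3 counts in any library and were not tested.

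Iron and glutathione carriers had values in both directions, and none of the 4 passed in edgeR (1 higher and 1 lower at an unadjusted p under 0.05; DESeq2 called 1 higher). Slc25a39, needed for glutathione import, had 54.4, 50.3 and 52.7 CPM in WT and 84.2, 75.5 and 107.5 CPM in KO. At a log2 fold change of 0.76 (SE 0.150, edgeR's adjusted p = 0.0578; 0.000719 to 0.231 over the alternatives), it was the carrier nearest to the threshold among those that did not pass. Slc25a40, its relative, had 9.19 to 12.8 CPM in WT and 12.4 to 14.5 CPM in KO. Slc25a37, mitoferrin-1, which imports iron, had 57.9, 53.6 and 62.7 CPM in WT and 37.1, 51.8 and 33.1 CPM in KO, with KO replicate 2 close to WT (log2 fold change -0.51, SE 0.176, edgeR's adjusted p = 0.144; 0.00998 to 0.393 over the alternatives). Slc25a28, mitoferrin-2, had 36.4, 33.8 and 34.0 CPM in WT and 31.4, 33.2 and 32.1 CPM in KO, a narrow separation at a log2 fold change of -0.11.

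The uncoupling-protein-like carriers had 3 tested members, none past edgeR's test (1 lower at an unadjusted p under 0.05; DESeq2 called 0). Slc25a30 had 33.5, 33.0 and 36.5 CPM in WT and 30.2, 27.8 and 28.1 CPM in KO, without overlap (log2 fold change -0.26, SE 0.108, edgeR's adjusted p = 0.206). Slc25a14 and Slc25a27 lay at 3.35 to 4.85 and 1.17 to 2.58 CPM, with overlapping groups. The uncoupling proteins belong to the same protein family under other symbols. Ucp2, found in many cells, immune cells included, had 382 ± 29.0 CPM in WT and 329 ± 56.5 in KO, and Mtch2, an outer-membrane relative, had 118.3 ± 7.02 and 198.0 ± 29.0 CPM (SD, n = 3 per group). Neither passed, nor did any of these 5 relatives in edgeR, where 3 were higher at an unadjusted p under 0.05. DESeq2 called 2 higher. Ucp3, named after its values were seen, had the largest log2 fold change of the 5 (1.47, SE 0.278, edgeR's adjusted p = 0.0574). Its groups did not overlap, at 20.9, 15.9 and 27.3 CPM in WT and 63.9, 39.2 and 74.5 CPM in KO. Ucp1, the thermogenic uncoupling protein, was named for its role outside the naming rule. It had 28.1, 5.598 and 17.6 CPM in WT and 46.2, 10.98 and 59.5 CPM in KO, and the groups overlapped (log2 fold change 1.19, SE 0.687, edgeR's adjusted p = 0.335).

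**Figure D4:**
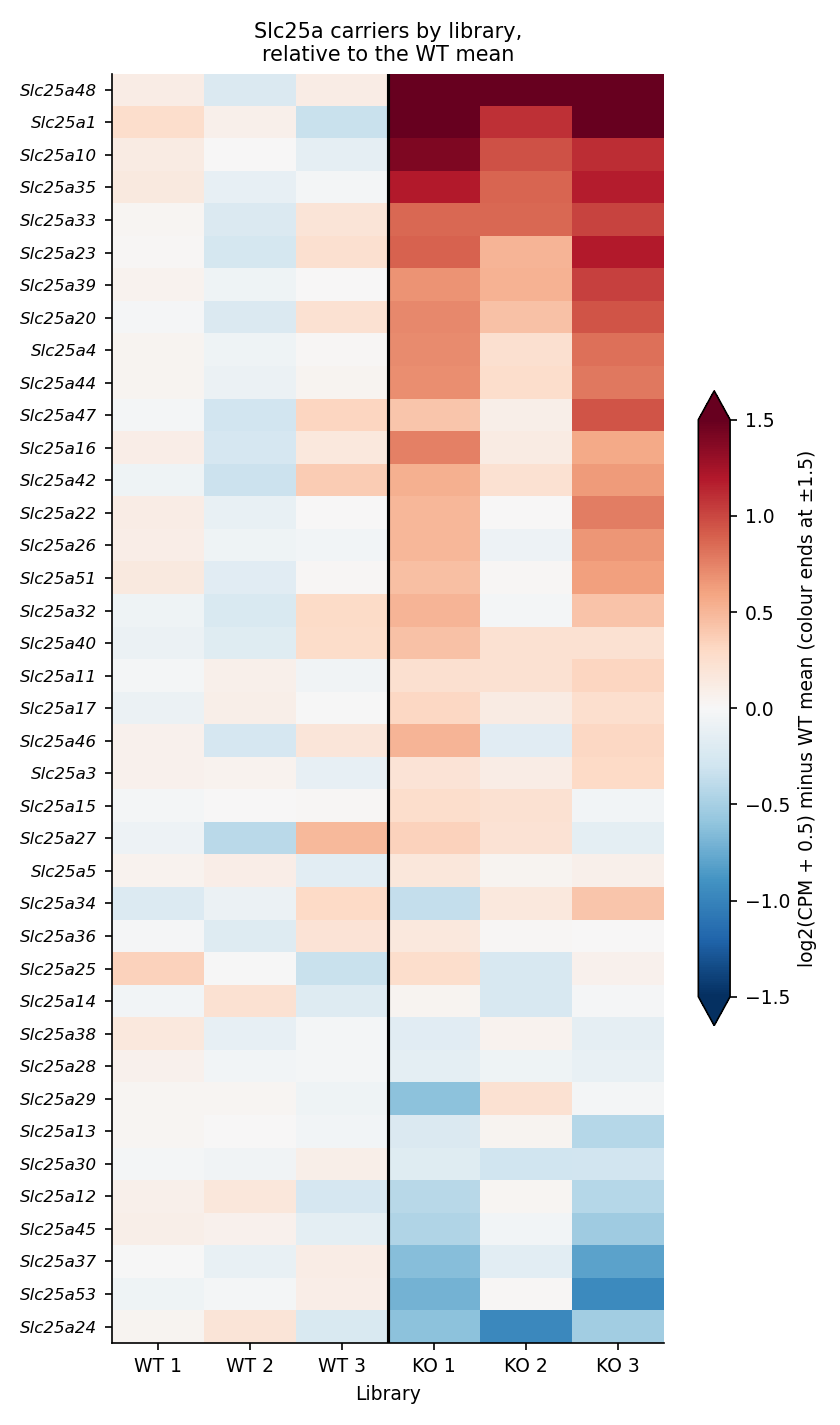
log2(CPM + 0.5) of 39 of the 40 tested carriers in each library (columns) minus the mean of the 3 WT libraries, with genes (rows) ordered by their KO mean. Red rows at the top are those higher in KO, and KO 2 is paler than KO 1 and KO 3 in most rows. It is the lowest KO library in 27 of the 40 tested, an order not counted over all genes.

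KO replicate 2 was the lowest of the 3 KO libraries in 27 of the 40 tested carriers and in 13 of the 14 whose groups separated upward. How often it was lowest or highest over all genes tested was not counted, so these orders are not shown to be particular to the carriers. In the same library the summed adipocyte marker level was 27869 CPM, against 43063 and 49387 CPM in KO replicates 1 and 3, and 1 of 14 adipocyte markers was called higher in edgeR (12 in DESeq2). All 14 had positive log2 fold changes, with a median of 0.81. In the lymphocyte sum KO replicate 2 stood above WT and the other KO libraries below it. Among the 40 tested carriers, KO replicate 2 was the highest KO library in 8. These were Slc25a12, Slc25a13, Slc25a28, Slc25a29, Slc25a37, Slc25a38, Slc25a45 and Slc25a53, all with negative log2 fold changes. In Slc25a14, Slc25a24 and Slc25a30, the other carriers with negative values, it was the lowest KO library. The part of adipocyte, macrophage, lymphocyte or muscle RNA in the carrier values was not tested.

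Levels of different carriers can be set beside each other only per length, here as CPM per kilobase of merged exons in GENCODE M21, which need not be the lengths expressed in fat. On this scale Slc25a5 was first in WT at 185.2 ± 17.0 and Slc25a1 next at 132.2 ± 27.1, followed by Slc25a3 at 62.4 ± 4.36 and Slc25a4 at 57.6 ± 2.20 CPM per kilobase (SD, n = 3). The ranking depends on the lengths used, which were 1646 bases for Slc25a5, 2164 for Slc25a1, 5550 for Slc25a3 and 2353 for Slc25a4. Before division by length, Slc25a3 had the highest WT mean of these, at 346.5 CPM, against 304.9 for Slc25a5 and 286.1 for Slc25a1. Slc25a3 lay above Slc25a4 in WT replicates 1 and 2 and below it in WT replicate 3, so their order is not settled. In KO, Slc25a1 was first at 345.9 ± 58.4, ahead of Slc25a5 at 197.7 ± 9.27, Slc25a4 at 88.3 ± 18.0, Slc25a3 at 72.03 ± 4.73 and Slc25a10 at 63.3 ± 10.03. Slc25a4 lay above Slc25a3 and Slc25a10 in every KO library, though barely above Slc25a3 in KO replicate 2 (68.0 against 67.5). The order of Slc25a3 and Slc25a10 differed between KO libraries. Slc25a1 took 19.8%, 18.3% and 14.8% of the summed per-kilobase level of the 46 carriers in WT and 32.4%, 28.8% and 31.1% in KO. Slc25a5 took 24.2%, 26.4% and 23.9% in WT and 17.3%, 19.5% and 16.4% in KO. These shares are tied to each other, since a larger Slc25a1 level lowers all others.

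Genes of the steps next to the citrate carrier were counted in the same fit. Of 12 tested genes of citrate metabolism, fatty acid synthesis and malate-aspartate exchange, 2 passed in edgeR and both were higher, against 0.865% of all genes. DESeq2 called 9 higher and 1 lower, against 7.34% and 3.61% of all genes, and limma-voom called 0. In 10 (83.3%) every KO library lay above every WT library, against 15.2% of all genes. Me1, the cytosolic malic enzyme that yields NADPH, had 537.7, 534.1 and 302.6 CPM in WT and 2214, 1247 and 1488 CPM in KO (log2 fold change 1.85, SE 0.308, edgeR's adjusted p = 0.0466). Fasn, the fatty acid synthase, was the other call (log2 fold change 1.77, edgeR's adjusted p = 0.0458). Acly and Cs, which cleave and make citrate, did not pass, at log2 fold changes of 1.49 and 0.78 (edgeR's adjusted p = 0.0696 and 0.0630). They were named after their values were seen. Got1, the cytosolic aspartate aminotransferase of the malate-aspartate shuttle, was named in the same way and lay lower without overlap, at 20.9, 21.1 and 22.4 CPM in WT and 13.5, 15.6 and 15.1 CPM in KO (log2 fold change -0.54, edgeR's adjusted p = 0.0665).

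Other membrane channels and sideroflexins of mitochondria had 2 of 11 tested members past edgeR's test, both higher, against 0.865% of all genes. DESeq2 called 4 higher and 1 lower, against 7.34% and 3.61% of all genes, and limma-voom called 0. The 2 were Mpc1 and Mpc2, the 2 subunits of the mitochondrial pyruvate carrier, which is unrelated to Slc25 and feeds pyruvate to the matrix. Mpc1 had 186.0, 144.1 and 166.1 CPM in WT and 462.3, 318.1 and 402.3 CPM in KO (log2 fold change 1.25, SE 0.184, edgeR's adjusted p = 0.0400). Mpc2 had 80.8, 74.0 and 79.0 CPM in WT and 193.3, 131.7 and 177.7 CPM in KO (log2 fold change 1.10, SE 0.164, edgeR's adjusted p = 0.0409). The machinery that imports carrier proteins into mitochondria had a median log2 fold change of 0.16 over 16 tested genes and none past edgeR's test, with 3 higher at an unadjusted p under 0.05 and 1 higher in DESeq2. Of these 16, 14 had positive values (87.5%, against 72.5% of the carriers and 44.2% of all genes). In 8 (50%, against 35% of the carriers and 15.2% of all genes) every KO library lay above every WT library. Its most highly counted member by mean CPM, Tomm20, an import receptor, had 108.7 ± 4.08 CPM in WT and 123.9 ± 3.86 in KO (SD, n = 3 per group). Whether the carriers differ from the import genes was not tested.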

How the data were processed

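Poly(A) RNA of 6 iWAT samples was sequenced by a stranded Illumina ligation protocol, per the labels' protocols. The authors deposited estimated counts per gene, 1 column per library, unscaled and not pooled; in each library 9.53% to 11.1% of values were not whole. How the table was quantified is not stated in the sources used here. For the whole series, the submitters' processing notes name fastp, featureCounts, GRCm38 and GRCm39 without assigning them to a tissue, so the counts were joined to no coordinates.

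Counts were rounded and symbols taken from GENCODE M21, which matched 26372 of 33200 identifiers (79.4%). Of 48 Slc25a symbols there, 47 are protein-coding and 46 of those are in the table. The test was edgeR 4.0.16 (R 4.3.3), quasi-likelihood with TMM, filterByExpr, robust estimation and Benjamini-Hochberg adjustment over all 16656 genes tested, two-sided, at 0.05. SE is the log2 fold change divided by the square root of F. Non-overlap means that every library of one group exceeded every library of the other in TMM-scaled CPM. It was not counted with library totals as scaling, and small separations can depend on the scaling. TMM factors were 0.920, 1.03 and 0.911 in KO replicates 1, 2 and 3 and 1.05 in each WT library. The 13 alternatives were DESeq2 1.42.0, limma-voom (limma 3.58.1), RLE factors, library totals, no filter, a non-robust fit, the replicate number as a block, and omission of 1 library at a time. The tests were also run on simulated counts in which no library stood apart as KO replicate 2 did. That run does not show how the tests behave on these libraries. Members, role groups and marker lists were chosen with earlier results of these data known. All members may be named; from each related list, up to 4 past the test, otherwise up to 2 by mean CPM, with exceptions marked in the text. Depth was 17970451 to 20369345 counts; a floor of 3 counts is 0.140 to 0.172 CPM and covers counting error only. The labels call the samples biological replicates. Values of 1 tested carrier are not reported here, though it is included in the counts and sums.

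Lists of other cell types gave these counts past the test: skeletal muscle 12 of 14 higher, mature adipocyte 1 of 14 higher, and brown or beige, macrophage, lymphocyte, progenitor and endothelial 0 of 9, 12, 10, 8 and 6 in edgeR. At an unadjusted p under 0.05, 4 brown or beige and 3 endothelial markers were higher, 11 macrophage and 4 progenitor markers lower, and 0 lymphocyte markers either. DESeq2 called 3 brown or beige and 2 endothelial markers higher, 6 macrophage and 2 progenitor markers lower, and 0 lymphocyte markers.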

Additional observations from a re-analysis of the deposited data

How the results depend on the processing

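The 171 genes called over the whole table became 1824 in DESeq2, 16 in limma-voom, 1370 without a filter and 1225 with the replicate block, and 1 to 4221 without 1 library. The 5 called carriers became 11 in DESeq2, 0 in limma-voom, 11 without a filter and 9 with the replicate block, and 0 to 20 without 1 library. Replicate numbers were not taken to pair the samples: deviations of same-numbered libraries correlated at -0.0122, 0.220 and 0.113 over genes. The carriers' median log2 fold change was 0.11 with library totals and 0.22 to 0.37 without 1 library. The Slc25a4 share differed by 5.76 to 10.2 percentage points without 1 library, with an exact permutation p of 0.2 each time, the smallest that 3 against 2 samples can give. Over 520 pairs of carrier and alternative, 14 changed sign, all in carriers that did not pass. With library totals these were Slc25a5 (-0.044), Slc25a25 (-0.13) and Slc25a36 (-0.087). The others came from leaving out 1 library, over which log2 fold changes ran from -0.14 to 0.21 in Slc25a25, -0.043 to 0.16 in Slc25a36, -0.14 to 0.40 in Slc25a34, -0.098 to 0.50 in Slc25a27, -0.27 to 0.12 in Slc25a29 and -0.19 to 0.057 in Slc25a14. With library totals the all-gene median shifted by -0.134, beside main log2 fold changes of 0.094, 0.016 and 0.049 in Slc25a5, Slc25a25 and Slc25a36. Fits without 1 library hold fewer samples. The cause of the sign changes was not tested. Slc25a48 in WT and the carriers left untested rest on few counts, and depth was not varied.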
